A study of Homo sapiens with 6 samples.

Results

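LIN28A, LIN28B, TUT4, TUT7, DIS3L2, TRIM71 and ZSWIM8 are among the genes that act in microRNA pathways after the microRNA transcript has been made. They were chosen by symbol, and all 7 were found among the 16199 genes of the deposited count table. RNA was sequenced from H1 cells, an established human embryonic stem cell line. The 6 samples fall into 3 genotypes of 2 samples each: wild type, hemizygous for S1344L in DICER1, and homozygous for it, the edits having been made with CRISPR-Cas9. DICER1 encodes the enzyme that cuts microRNA precursors, and S1344L exchanges a serine for a leucine in it. No treatment is named in the labels. They do not say what the other DICER1 allele of hemizygous cells is, or whether a genotype's samples came from separate clones or cultures, so each p-value reflects only how far these samples differ, and that difference may be technical.

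LIN28A and LIN28B bind the precursor of let-7, a microRNA family that is held back in stem cells and accumulates as they differentiate. Bound LIN28A recruits the terminal uridylyltransferases TUT4 and TUT7, which add a tail of uridines to the precursor, and the exonuclease DIS3L2 degrades RNA with such tails. TRIM71 is an RNA-binding protein and a classic let-7 target. ZSWIM8 is the substrate receptor of a cullin ligase that destroys Argonaute when a microRNA is paired extensively with a trigger RNA, and so releases the microRNA for decay. DICER1 acts in the same path, on the precursors that escape the LIN28 proteins.

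The let-7 sequences are shown first because the circuit runs through them in both directions. In the lines below, taken from RefSeq (GRCh38.p14), the capitals mark the seed, bases 2 to 8 from the 5′ end, with which a microRNA finds its targets. The 12 let-7 family hairpins give 9 distinct 5p sequences, and every 1 of these 9 has the same seed.
let-7a-5p: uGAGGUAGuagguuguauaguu
let-7d-5p: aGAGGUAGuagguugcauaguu
let-7e-5p: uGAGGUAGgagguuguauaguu
let-7g-5p: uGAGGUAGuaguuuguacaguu

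The hairpins differ in the motif that the zinc knuckles of LIN28 proteins recognise, GGAG, which is in capitals below. It was searched on the hairpin strand and lies between the arms in 9 of the 12 hairpins. It is absent from 3, those of let-7a-3, let-7b and miR-98. Of all 1560 RefSeq hairpins, of whatever length, 43.4% hold these letters somewhere. The first hairpin lies at chr3:52268278-52268361 (minus strand), the next at chr9:94175957-94176036 and the last at chr22:46113686-46113768 (both plus strand).
let-7g hairpin: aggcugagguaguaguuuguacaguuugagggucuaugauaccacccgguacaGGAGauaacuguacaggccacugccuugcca
let-7a-1 hairpin: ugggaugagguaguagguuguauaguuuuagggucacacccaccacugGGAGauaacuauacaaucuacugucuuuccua
let-7b hairpin: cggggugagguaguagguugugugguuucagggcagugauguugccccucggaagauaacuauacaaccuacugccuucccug

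Among the 7 genes, 3 have matches to the let-7 seed in their 3′ UTR: LIN28A has 1, LIN28B has 4 and TRIM71 has 6. The match searched was CTACCTC, on the transcript strand, in the longest 3′ UTR of a coding transcript in GENCODE release 29. At 7 of these 11 matches an A follows, which strengthens let-7 pairing sites in general. Those 7 are printed with the 15 bases before them, the match in capitals; all lie on the plus strand of GRCh38.
LIN28A, chr1:26427348-26427370: gcacagcctattgaaCTACCTCa
LIN28B, chr6:105078812-105078834: acccggttgcaaagtCTACCTCa
LIN28B, chr6:105081421-105081443: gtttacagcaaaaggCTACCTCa
TRIM71, chr3:32891968-32891990: aacattgcttaagtcCTACCTCa
TRIM71, chr3:32892048-32892070: agtgataatttctatCTACCTCa
TRIM71, chr3:32895805-32895827: gcttttgctgagtttCTACCTCa
TRIM71, chr3:32895828-32895850: cttgtggcaagtcatCTACCTCa

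A match is only these letters in the reference and not a measured site. These UTRs are long, and long UTRs hold the match more often. At least 1 match is found in 29.3% of the 689 measured genes whose 3′ UTR is within 20% of the length of that of TRIM71 (6018 nt). The share is 24.2% of 1115 genes for LIN28B (4552 nt) and 16.5% of 1551 genes for LIN28A (3267 nt). TUT4, TUT7, DIS3L2 and ZSWIM8 have no match in UTRs of 1068, 947, 1126 and 281 nt, where 2.48% to 6.64% of genes of similar UTR length have one.

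**Figure D1:**
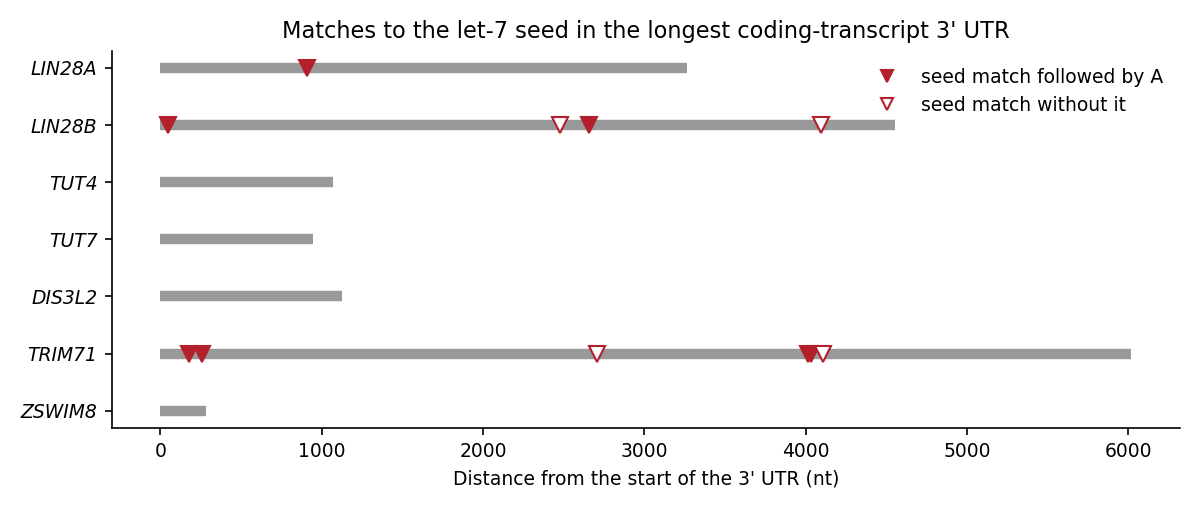
Grey bars are the longest 3′ UTR of a coding transcript of each gene, in nt from its start; triangles are matches to the let-7 seed, filled where an A follows. LIN28B has 4 matches, TRIM71 has 6, LIN28A has 1 and the other genes have none.

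The listed counts summed to between 38164848 and 52924532 per sample. Expression is given in CPM, the share of a library's counts scaled to a common size. Differences are log2 fold changes of edgeR's quasi-likelihood test, with p-values adjusted over all 16199 genes by the Benjamini-Hochberg method. DICER1 was at 96.4 to 169 CPM over the 6 samples, and counts cannot show whether a transcript carries the edit. All 10 markers of pluripotent stem cells were measured, with a summed level of 4485 to 5286 CPM. PAX6, SOX1, TBXT, EOMES, SOX17, FOXA2, GATA4 and GATA6, which define early neural, mesodermal and endodermal cells, are not among the genes analysed here. The lowest count behind any of the 7 genes was 820, for DIS3L2 in hemizygous 1, where the Poisson counting error is 3.49% of the count. Wild type 1 and hemizygous 1 stood apart from the other 4 libraries: a chi-square of their counts, per degree of freedom, was 16.5 between them and 55.7 to 97.4 against the others, which were at 11.5 to 41.7 among themselves.

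Per length, LIN28A stood far above the rest. Over all samples its mean was 524 CPM per kb of non-overlapping exon sequence, at percentile 99.7 of 15926 genes with a length. TRIM71 followed at 86.8 CPM per kb (percentile 97.6), then LIN28B at 35.1 (93.0). TUT4 was at 7.46 CPM per kb, TUT7 at 5.48, ZSWIM8 at 4.15 and DIS3L2 at 2.05, the last at percentile 33.4. These levels rest on the exons of the annotation used here, which need not be those the reads were counted on. The LIN28A mean was 6.03 times that of TRIM71, and no 2 neighbours in this order overlapped in their range over the 6 samples. The order was the same by the longest annotated transcript, but TUT4 was then at 20.6 CPM per kb, its exon total of 16199 nt being spread over 21 transcripts. By that measure TUT7 at 6.42, ZSWIM8 at 5.43 and DIS3L2 at 4.98 CPM per kb were close, and the ranges overlapped between TUT7 and ZSWIM8 and between ZSWIM8 and DIS3L2.

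No gene of the 7 passed the edgeR threshold in any of the 3 genotype comparisons. The same comparisons called 0 of 16199 genes (0%) each, with 141, 435 and 124 genes at an unadjusted p under 0.05, none of them among the 7. The log2 fold changes of the 7 lay between -0.14 and 0.22 for hemizygous against wild type, between -0.22 and 0.26 for homozygous against wild type, and between -0.28 and 0.28 for homozygous against hemizygous. Their medians were 0.06, -0.05 and 0.04, beside -0.0026, -0.0034 and -0.00035 over all genes. DESeq2 called 7, 10 and 10 genes and limma-voom 0 in each, none of them among the 7 described here.

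**Figure D2:**
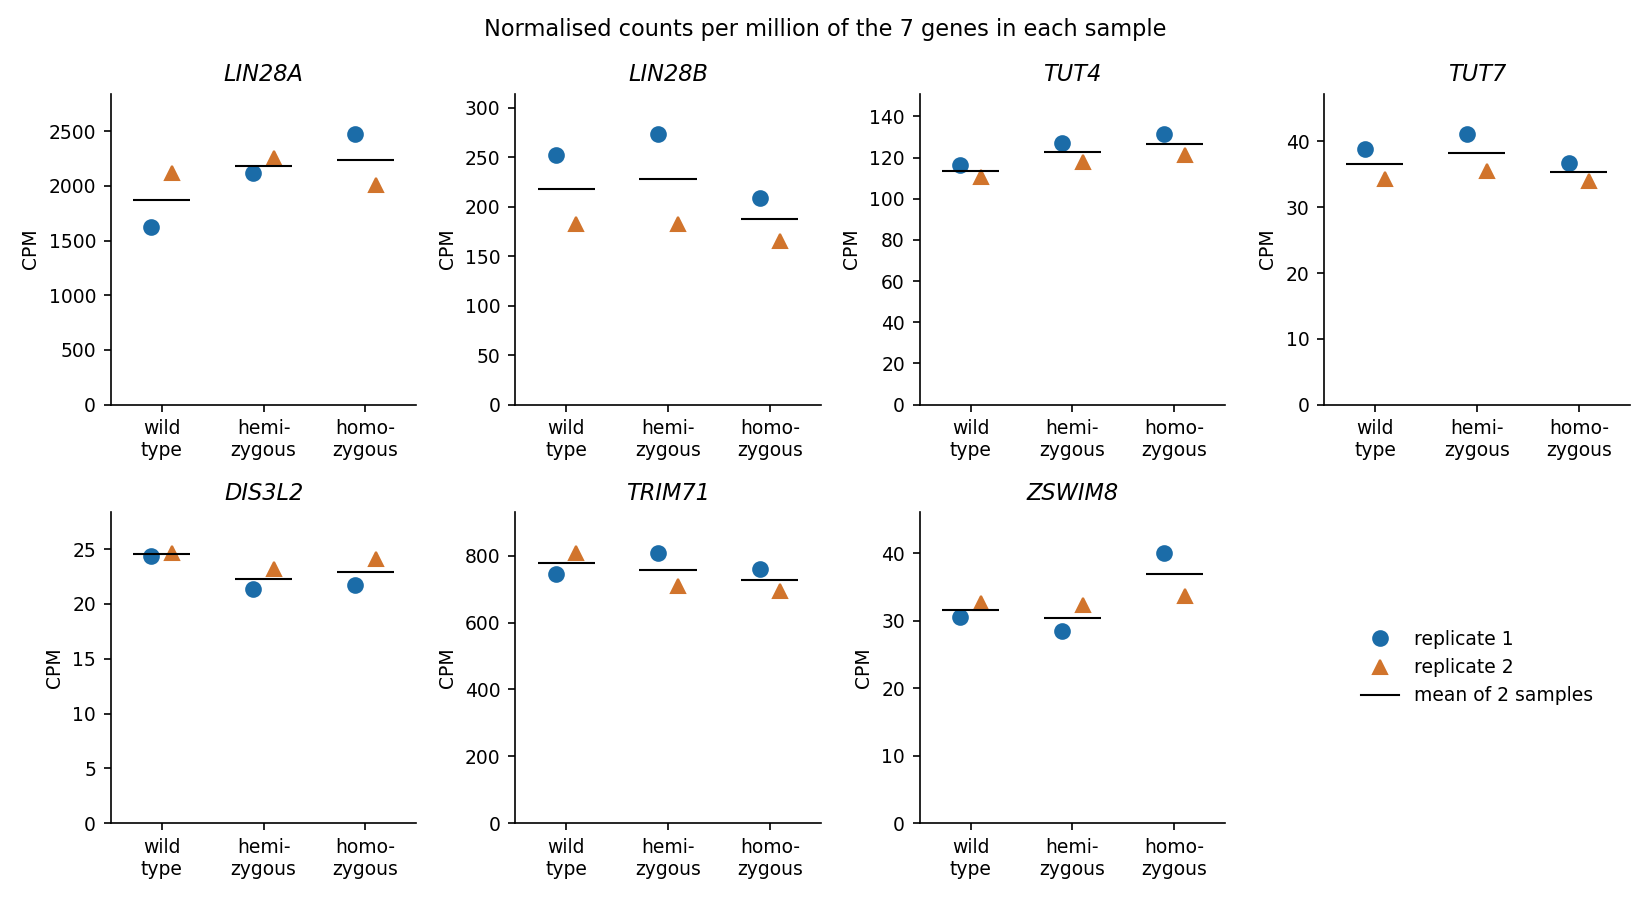
CPM of each gene in every sample, by genotype; circles are replicate 1, triangles replicate 2 and bars the mean of 2 samples. LIN28B is higher in replicate 1 of every genotype, while LIN28A runs from 1627 CPM in wild type 1 to 2473 CPM in homozygous 1.

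LIN28A, the family member typical of pluripotent cells, was at 1627 and 2121 CPM in wild type 1 and 2, 2114 and 2250.3 CPM in hemizygous 1 and 2, and 2473 and 2006 CPM in homozygous 1 and 2. Wild type 1 was the lowest sample and homozygous 1 the highest, and the ranges of all genotypes overlapped. Hemizygous cells differed from wild type by a log2 fold change of 0.22 ± 0.18 (SE), with a 95% interval of 0.865-fold to 1.57-fold. For homozygous cells the value was 0.26 ± 0.18 (SE), with an interval of 0.888-fold to 1.61-fold, and neither passed (edgeR adjusted p = 1.00 for both). Wild type 2 moved both values most: without it they were 0.44 and 0.47, and without wild type 1 they were 0.05 and 0.08. Among samples numbered 1 the homozygous sample differed from wild type by 0.60 on the log2 scale, and among those numbered 2 by -0.08.

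LIN28B, its paralog with the same cold-shock and zinc-knuckle domains, was at 253 and 182 CPM in wild type 1 and 2 and at 274 and 182 CPM in hemizygous 1 and 2. In homozygous 1 and 2 it was at 209 and 165 CPM. The genotypes overlapped, and in each the sample numbered 1 was higher. Within a number, the homozygous sample differed from wild type by -0.27 (number 1) and -0.14 (number 2) in log2 CPM, and from the hemizygous sample by -0.39 and -0.14. Against wild type its log2 fold change was 0.07 ± 0.25 (SE) for hemizygous cells and -0.22 ± 0.25 (SE) for homozygous cells (edgeR adjusted p = 1.00 for both). Its intervals were the widest of the 7, from 0.565-fold to 1.31-fold for homozygous against wild type, in a fit without the replicate number. With that number as a block, homozygous against hemizygous had an SE of 0.097 in place of 0.25. Its 95% interval on the log2 scale was then -0.49 to -0.037 (edgeR adjusted p = 0.573). Against wild type the blocked interval for homozygous cells was -0.43 to 0.021 (edgeR adjusted p = 0.445). LIN28B-AS1, an RNA from the opposite strand that shares 1.12% of the LIN28B exon bases, was at 1.39 to 2.02 CPM. The library kit does not keep strand, and how reads from the shared bases were counted is not given in the sources used here.

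TUT4 was at 116 and 110.4 CPM in wild type 1 and 2, 127 and 118 CPM in hemizygous 1 and 2, and 131 and 121 CPM in homozygous 1 and 2. All 4 edited samples lay above both wild-type samples, by little. For hemizygous cells the log2 fold change was 0.11 ± 0.13 (SE), with a 95% interval of 0.878-fold to 1.33-fold. For homozygous cells it was 0.16 ± 0.13 (SE), with an interval of 0.906-fold to 1.37-fold (edgeR adjusted p = 1.00 for both). TUT7, which acts beside TUT4 on the same precursors and on mRNAs with short poly(A) tails, was at 38.8 and 34.4 CPM in wild type 1 and 2 and at 41.1 and 35.5 CPM in hemizygous 1 and 2. In homozygous 1 and 2 TUT7 was at 36.7 and 34.0 CPM, and all genotypes overlapped. Its log2 fold changes against wild type were 0.06 ± 0.15 (SE) and -0.05 ± 0.15 (SE).

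DIS3L2, whose inherited loss causes the overgrowth disorder Perlman syndrome, was at 24.4 and 24.7 CPM in wild type 1 and 2. It was at 21.4 and 23.2 CPM in hemizygous 1 and 2 and at 21.7 and 24.1 CPM in homozygous 1 and 2. The edited samples all lay below wild type, but homozygous 2 lay within counting error of it, which is 2.81% for wild type 1 and 3.20% for homozygous 2. Its log2 fold change from wild type was -0.14 ± 0.14 (SE) for hemizygous cells and -0.10 ± 0.14 (SE) for homozygous cells (edgeR adjusted p = 1.00 for both). DIS3L2 has an annotated pseudogene on the same chromosome, DIS3L2P1, and shares 4.93% of its exon bases with another pseudogene, AC068134.3; how reads that match both were counted is not given in the sources used here.

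TRIM71 was at 746 and 809 CPM in wild type 1 and 2, 807 and 709.96 CPM in hemizygous 1 and 2, and 759 and 694 CPM in homozygous 1 and 2. The genotypes overlapped. Its log2 fold changes against wild type were -0.04 ± 0.14 (SE; edgeR adjusted p = 1.00) and -0.10 ± 0.14 (SE; edgeR adjusted p = 1.00), hemizygous first. With 6 matches to the let-7 seed it has the most of the 7 genes, and its 95% interval in homozygous cells ran from 0.747-fold to 1.17-fold.

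ZSWIM8 was at 30.6 and 32.6 CPM in wild type 1 and 2 and at 28.4 and 32.4 CPM in hemizygous 1 and 2. In homozygous 1 and 2 it was at 40.1 and 33.7 CPM, above every other sample. Homozygous 2 was so by little, with counting errors of 2.70% there, 2.80% in wild type 2 and 2.42% in hemizygous 2. Among samples numbered 1 homozygous differed from hemizygous by 0.50 in log2 CPM, and among those numbered 2 by 0.06. From wild type the differences were 0.39 and 0.05. Homozygous cells differed from hemizygous cells by 0.28 ± 0.15 on the log2 scale (SE; edgeR adjusted p = 0.999). This was the highest positive log2 fold change of the 7 genes in the genotype comparisons, and LIN28B was at -0.28 ± 0.25 (SE) in the same comparison. For ZSWIM8 the value was 0.15 without homozygous 1 and 0.40 without homozygous 2. Of the ZSWIM8 exon bases, 11.9% are shared with ZSWIM8-AS1 and 16.7% with AC022400.6, both on the opposite strand, and reads from these bases cannot be told apart in libraries without strand.

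Some of the 7 did not overlap between genotypes. For hemizygous against wild type they were 2 of the 7, TUT4 (higher) and DIS3L2 (lower), where 17.3% of all genes did not overlap. For homozygous against wild type they were 3 of the 7, TUT4 and ZSWIM8 (higher) and DIS3L2 (lower), with 27.9% among all genes. These comparisons share the wild-type samples, so the recurrence of TUT4 and DIS3L2 is not separate evidence. ZSWIM8 was the only gene of the 7 without overlap for homozygous against hemizygous cells, with 21.4% among all genes.

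**Figure D3:**
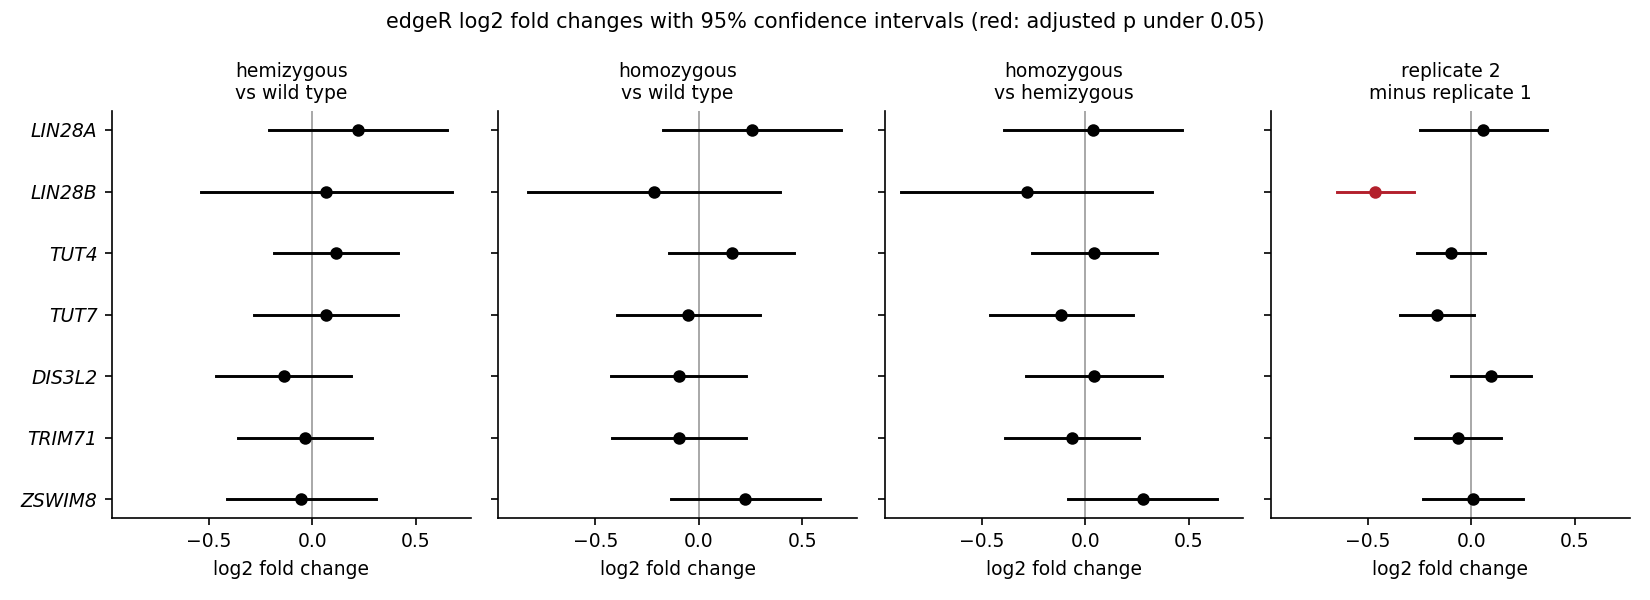
Log2 fold changes of the 7 genes (points) with 95% confidence intervals (lines) in the 3 genotype comparisons and between replicate numbers; red marks an edgeR adjusted p under 0.05. Every genotype interval, from the fit without the replicate number, spans 0, and LIN28B at -0.47 between replicate numbers is the only red point.

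LIN28B differed by replicate number. The replicate 2 minus replicate 1 difference in log2 CPM was -0.47 for wild type, -0.59 for hemizygous cells and -0.34 for homozygous cells. With genotype held in the model the log2 difference was -0.47 ± 0.08 (SE; edgeR adjusted p = 0.0149), 0.724-fold with a 95% interval of 0.637 to 0.824, and lower in 3 of 3 genotypes. LIN28B was the only 1 of the 7 called, beside 20.5% of all genes, so a call here is common. DESeq2 (adjusted p = 5.46e-05) and limma-voom (adjusted p = 0.0135) called it too. The call was lost without the wild-type samples (-0.45, edgeR adjusted p = 0.0801) and without the hemizygous samples (-0.39, edgeR adjusted p = 0.132), and was kept without the homozygous samples (-0.53, edgeR adjusted p = 0.00133). Over all genes the 3322 calls fell to 0 without the wild-type samples and to 2 without the hemizygous samples, and rose to 6252 without the homozygous samples. The 2 libraries that stood apart, wild type 1 and hemizygous 1, are both numbered 1, and homozygous 1 was closer to the libraries numbered 2 (chi-square per degree of freedom 28.4 to 41.7) than to these (55.7 and 58.3). The labels do not say what the number marks, and total counts did not go with it, being 52924532 and 38164848 in wild type 1 and 2 but 39693194 and 51598026 in hemizygous 1 and 2.

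TUT7 followed LIN28B at a smaller scale. Its replicate 2 minus replicate 1 differences, genotypes in the same order, were -0.18, -0.21 and -0.11 on the log2 scale, and the fitted difference was -0.17 ± 0.08 (SE; edgeR adjusted p = 0.151). TUT4 was lower in replicate 2 of every genotype as well (fitted difference -0.10) and DIS3L2 higher (0.09), neither passing the test. The sign was thus the same in all genotypes for 4 of the 7 genes, where 58.2% of all genes had the same sign in all 3. LIN28A showed no common direction: its difference was 0.38 for wild type, 0.09 for hemizygous cells and -0.30 for homozygous cells. TRIM71 (fitted difference -0.07) and ZSWIM8 (0.01) changed sign between genotypes too.

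Some markers of other cell types also differed with the replicate number, where 20.5% of all genes were called. GABRP, a trophoblast and amnion marker, was higher in replicate 2 (0.79, edgeR adjusted p = 0.0126). The fibroblast marker COL1A1 (-0.44, edgeR adjusted p = 0.0388) and the endoderm marker CXCR4 (-0.83, edgeR adjusted p = 0.0457, at 0.895 to 2.16 CPM) were lower. THY1, listed with the fibroblast markers but at 333 to 468 CPM over the samples, was higher without passing (0.19, edgeR adjusted p = 0.0936). COL1A2 of the same list was lower without passing (-0.26, edgeR adjusted p = 0.103), and its DCN and LUM were not analysed here. No neural ectoderm marker passed. The 3 neural ectoderm markers measured of 5 summed to 493 and 449 CPM in wild type 1 and 2, to 560.05 and 465 CPM in hemizygous 1 and 2, and to 419.5 and 407 CPM in homozygous 1 and 2. NES alone was at 371 to 515 CPM (replicate 2 minus replicate 1 -0.19, edgeR adjusted p = 0.157), while ZIC1 (0.13) and FABP7 (0.34) differed the other way, and PAX6 and SOX1 were not analysed here. The 2 trophoblast and amnion markers measured of 5 went the other way, with sums of 10.8 to 15.3 CPM in replicate 1 and 15.9 to 23.6 CPM in replicate 2. In bulk RNA fewer cells of a type and less RNA per cell cannot be told apart, and the part of these markers in the LIN28B difference was not tested. Between genotypes ZIC1 was at 17.9 and 16.3 CPM in wild type 1 and 2, at 41.0 and 58.9 CPM in hemizygous 1 and 2 and at 28.2 and 28.01 CPM in homozygous 1 and 2. Its log2 fold change from wild type was 1.54 for hemizygous and 0.71 for homozygous cells (edgeR adjusted p = 0.710 and 1.00), and that of FABP7 was 0.75 and 1.201 (edgeR adjusted p = 1.00 for both). Neither passed, and their part in the genotype comparisons was not tested.

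The balance of paralogs within a sample does not depend on library size. Relative to LIN28A counts, LIN28B counts stood at 15.5% in wild type 1 and 8.59% in wild type 2. The values were 12.9% and 8.10% for hemizygous 1 and 2, and 8.45% and 8.25% for homozygous 1 and 2. Wild type 1 and hemizygous 1 stood apart, and the other 4 samples lay within 8.10% to 8.59%. The log2 ratio was lower by 0.32 in edited than in wild-type samples (-3.43 ± 0.32 against -3.11 ± 0.60, SD, n = 4 and 2). This difference did not pass an exact permutation test (two-sided p = 0.267). Of the 15 arrangements 1 alone is a share of 0.0667, and a two-sided p is larger still. The test could therefore not reach 0.05. Without wild type 1 the difference turned to 0.11.

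Relative to TUT4 counts, TUT7 counts stood at 33.4% in wild type 1 and 31.1% in wild type 2. The values were 32.3% and 30.02% for hemizygous 1 and 2, and 27.9% and 27.98% for homozygous 1 and 2. Both homozygous samples were below the other 4. The mean log2 ratio was -1.63 ± 0.07 for wild type, -1.68 ± 0.08 for hemizygous cells and -1.84 ± 0.0021 for homozygous cells (SD, n = 2 each). In homozygous 1 and 2 the counting error was 2.45% and 2.69% for TUT7 and 1.29% and 1.42% for TUT4. The homozygous SD is below what counting error alone gives, so it does not measure the spread of such samples. Edited samples together differed from wild type by -0.13 (exact permutation test, two-sided p = 0.267, which could not reach 0.05 here either). Leaving out 1 sample at a time kept the difference between -0.18 and -0.08.

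**Figure D4:**
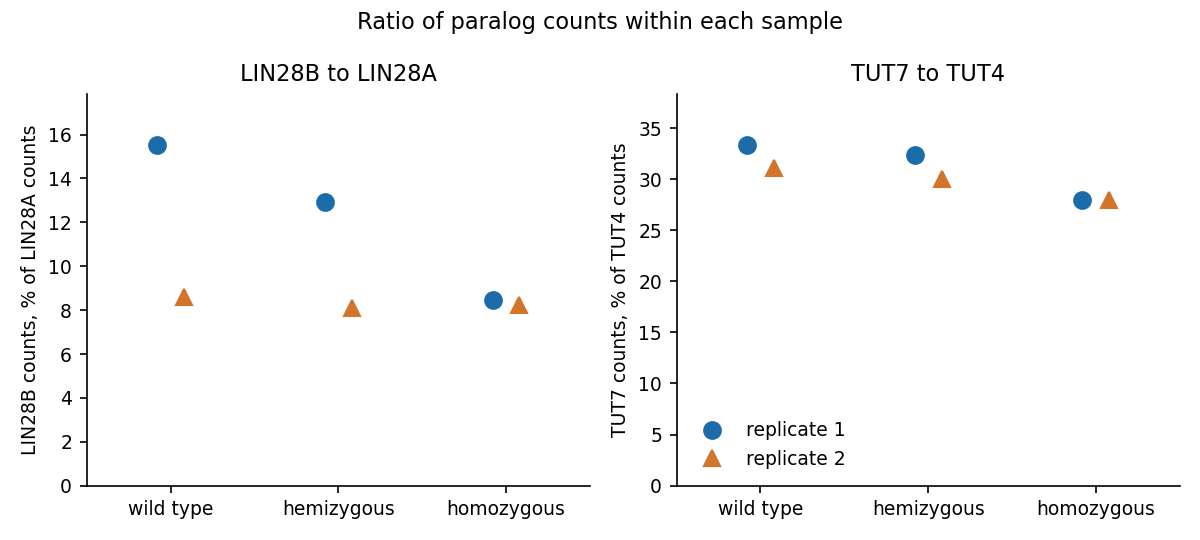
Counts of LIN28B as a percentage of LIN28A counts (left) and of TUT7 as a percentage of TUT4 counts (right) in each sample; circles are replicate 1 and triangles replicate 2. Wild type 1 (15.5%) and hemizygous 1 (12.9%) stand above the other samples on the left, and the homozygous samples (27.9% and 27.98%) are the lowest on the right.

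Over the 6 samples LIN28B and TUT7 had the most alike profiles of the 21 pairs among the 7 genes (Pearson r of log2 CPM 0.98), and TUT4 and DIS3L2 the most opposed (-0.88). These are descriptions of 6 libraries that share genotypes and replicate numbers. Of 9914 other genes of at least 10 CPM, 1090 had an r above 0.95 with LIN28B and 727 with TUT7, against 13 to 44 for TRIM71, LIN28A, TUT4, DIS3L2 and ZSWIM8. The closest profiles were those of CLASP2 (r = 1.00) and RASSF8 (0.999) for LIN28B, TMEM33 and ORC2 (both 0.998) for TUT7, and TLE1 (0.984) and CAPN5 (0.983) for LIN28A. They were SIAH1 (0.989) and TFB2M (0.976) for TUT4, HABP4 (0.989) and TRAPPC3 (0.987) for DIS3L2, CNOT6 (0.992) and RBM15 (0.991) for TRIM71, and ALDOC (0.994) and COQ4 (0.993) for ZSWIM8.

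The wider pathway was read from 7 lists, of whose 96 entries 90 were measured. In the 3 genotype comparisons 0 of these 90 passed edgeR over all genes, and DICER1 and MIRLET7BHG had an unadjusted p under 0.05 in 1 comparison each. IGF2BP1 and IGF2BP3 are in 2 of the lists. The exonuclease gene PARN and NEDD8, which most cells express, are among the listed genes not analysed here. Of 16 LIN28 partners and other regulators of let-7 maturation, the largest differences from wild type in homozygous cells were 0.14 for SYNCRIP, an RNA-binding protein, and -0.38 for the helicase gene DDX3X, with a list median of -0.02. In hemizygous cells they were 0.14 for IGF2BP3 and -0.13 for MSI1, with a median of 0.01.

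The 10 other terminal nucleotidyltransferases had medians of 0.09 and -0.04 in hemizygous and homozygous cells against wild type. TENT4B, which adds mixed tails to mRNAs, was at 0.17 and TENT5B at -0.07 in hemizygous cells, and TUT1, which uridylates U6 RNA, at 0.31 and TENT5C at -0.33 in homozygous cells. Among 21 exonucleases and exosome parts the medians were 0.0025 and 0.00079. TSNAX (0.13) and EXOSC4 (-0.23) marked the ends in hemizygous cells, and the exosome genes EXOSC5 (0.33) and EXOSC2 (-0.26) in homozygous cells.

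The 11 measured partners of ZSWIM8 and triggers of target-directed decay had medians of -0.01 and 0.0090 in hemizygous and homozygous cells against wild type. BCL2L11, whose mRNA can trigger such decay, was at 0.22 in hemizygous cells and ELOB, an elongin subunit, at 0.22 in homozygous cells. The lowest values were those of the ZSWIM8 paralogs ZSWIM5 in hemizygous (-0.18) and ZSWIM6 in homozygous cells (-0.32).

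The 7 literature mRNA targets of TRIM71 had a median of -0.05 in hemizygous cells and lay between -0.38 for CDKN1A and -0.0011 for E2F7, none passing. In homozygous cells CDKN1A, the p21 cell cycle inhibitor gene, was at -0.99 ± 0.45 (SE; edgeR adjusted p = 1.00). CDKN1A was at 112 CPM in wild type 1 but at 44.6 CPM in wild type 2, beside 32.8 and 46.2 CPM in homozygous 1 and 2. EGR1, an immediate early gene, was at 1.76 ± 0.81 (SE; edgeR adjusted p = 1.00). EGR1 was at 17.1 CPM in homozygous 1 and at 1.75 to 3.97 CPM in the other 5 samples.

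The host transcripts of let-7 hairpins were represented by 4 genes, with medians of 0.03 and 0.09. MIRLET7BHG, the host of let-7a-3 and let-7b, which are 2 of the 3 hairpins without GGAG, was at 0.713 and 1.53 CPM in wild type 1 and 2, 1.12 and 2.09 CPM in hemizygous 1 and 2, and 2.53 and 2.44 CPM in homozygous 1 and 2. Both homozygous samples were the highest. Homozygous cells differed from wild type by 1.16 ± 0.46 on the log2 scale (SE; edgeR adjusted p = 1.00). MIR100HG, the host of let-7a-2, was at -0.70. Host transcripts say nothing here of the mature microRNAs, which were not measured in these libraries.

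The 21 literature targets of let-7 besides the 7 genes had medians of 0.01 and -0.02 against wild type. NRAS, a RAS oncogene, was highest in both (0.42 and 0.24). DICER1, itself a let-7 target, was at -0.46 in hemizygous cells (edgeR adjusted p = 1.00), and PLAGL2, a zinc-finger gene, at -0.34 in homozygous cells. DICER1 is also the gene edited here, and whether its level follows the edit or let-7 was not tested.

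**Figure D5:**
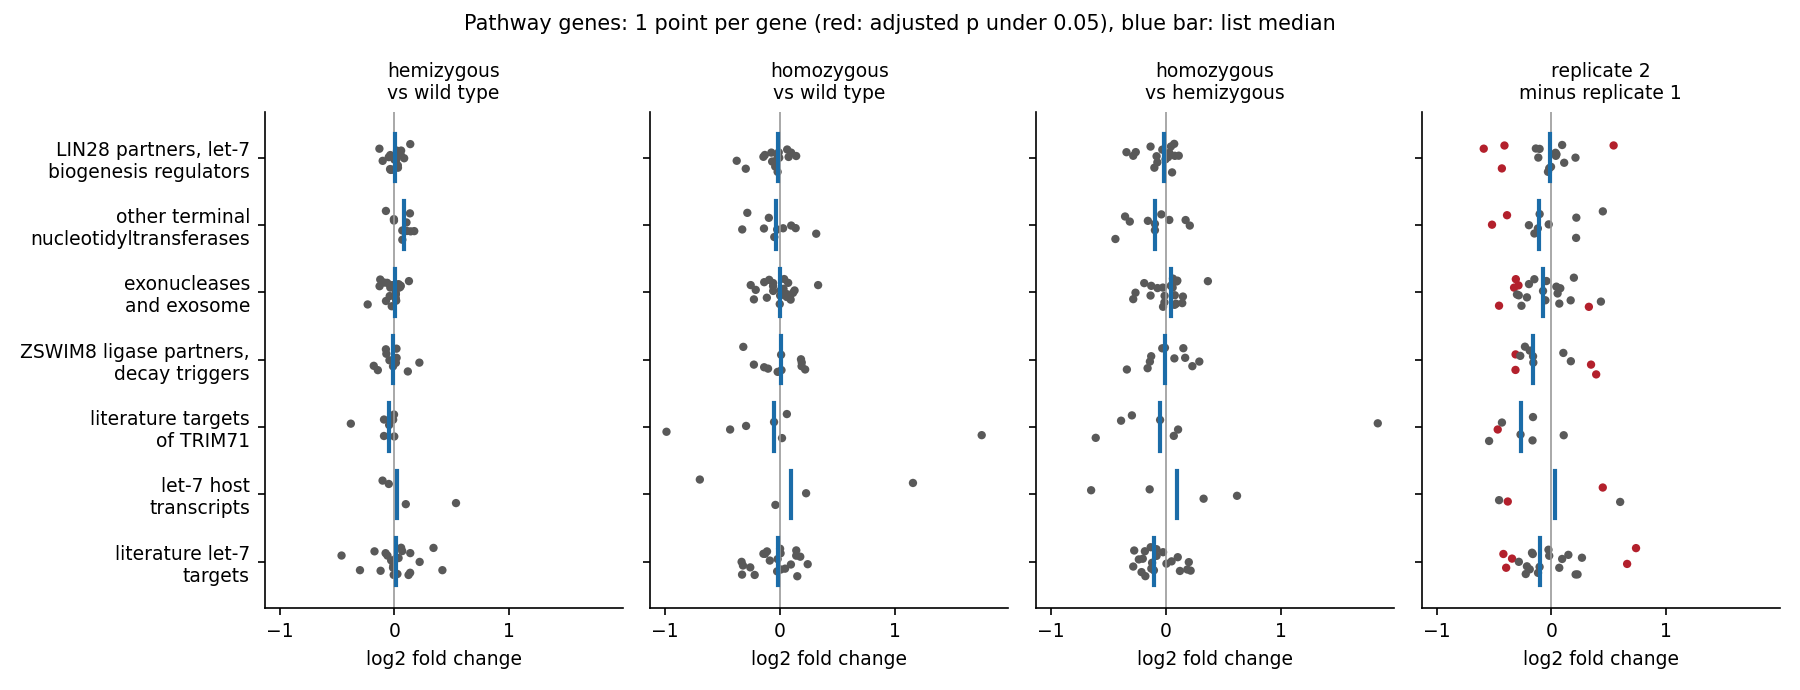
Log2 fold changes of the measured genes of 7 pathway lists (points, red for an edgeR adjusted p under 0.05) in the 3 genotype comparisons and between replicate numbers, with list medians as blue bars. No point is red in a genotype comparison; the point farthest to the right is EGR1, at 1.76 for homozygous against wild type and 1.85 for homozygous against hemizygous cells.

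Between replicate numbers, where 20.5% of all genes were called, genes of every list passed edgeR. These calls come from the fit whose total fell from 3322 to 0 without the wild-type samples and to 2 without the hemizygous samples. Among the LIN28 partners and regulators 1 was higher in replicate 2 (MSI1, 0.54) and 3 were lower, among them the helicases DHX9 (-0.59) and DDX3X (-0.43), of 16. Lower too were 2 of 10 nucleotidyltransferases, TENT4B (-0.52) and TENT5A (-0.39), and 4 of 21 exonucleases and exosome parts, among them XRN1 (-0.46) and DIS3 (-0.33), while EXOSC7 was higher (0.33). Of the 11 genes around ZSWIM8, RBX1 (0.39) and ELOB (0.34), both ligase parts, were higher. Lower were OIP5-AS1 (-0.31), the noncoding RNA that triggers decay of miR-7, and ARIH1 (-0.31), a ubiquitin ligase that works with cullin ligases. E2F7 (-0.47) was lower of the 7 TRIM71 targets. Of the 4 let-7 hosts MIRLET7A1HG was higher (0.45) and HUWE1 lower (-0.38). Of the 21 let-7 targets 2 were higher, CCND2 (0.74) and FIGNL2 (0.66), and 3 lower, among them PLAGL2 (-0.42) and NRAS (-0.39).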

How the data were processed

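The submitters' processing notes name cutadapt, HISAT2 and hg38. Which program counted reads, and with what annotation, is not given in the sources used here. What the authors deposited is a table of counts, whole and not normalized, with 1 column for each of the 6 samples. Every gene has over 0.5 CPM in at least 3 samples. The TruSeq kit named in the labels does not keep strand.

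All 6 samples were fitted together by genotype with edgeR 4.0.16 in R 4.3.3 (TMM, filterByExpr, which removed 0 genes, quasi-likelihood test, adjusted p under 0.05, 3 residual degrees of freedom); replicate numbers were compared with genotype as covariate (2 residual degrees of freedom). Each SE was derived from the test statistic. DESeq2 1.42.0 and limma 3.58.1 were alternatives. The fit was tested on simulated data. Symbols were matched to GENCODE release 29 (GRCh38) for 15926 genes, 273 being unmatched. Libraries were checked for copies (chi-square per degree of freedom 11.5 to 97.4).

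The 7 genes in every comparison were named, and from each list up to 2 called genes in each direction or else both extremes. One listed gene is not reported here and was left out of its list. The genes and lists were chosen with earlier results of these data known.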

Additional observations from a re-analysis of the deposited data

How the results depend on the processing

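Depth was ample for these genes, and 2 samples a genotype limited them. Of 189 values of the 7 genes under other scalings, filters, tests, the 4 compared samples alone and the replicate block, 189 kept their direction and side of the threshold. The main filter removed 0 genes, so the setting without a filter repeats the main fit and its values could not differ. Genes called over all genes, 0 in each genotype comparison by edgeR, were 7, 10 and 10 by DESeq2 (hemizygous and homozygous against wild type, then homozygous against hemizygous). With the replicate number as a block they were 1, 0 and 1 by edgeR and 23, 126 and 24 by DESeq2, none of them among the 7. Deviations from genotype means correlated between samples of the same number at 0.741 (wild type and hemizygous), 0.357 (wild type and homozygous) and 0.476, but with 2 numbers that the labels do not explain the samples were taken to share only a number. The block, with 2 pairs, changed no call of the 7 genes. LIN28B, homozygous against hemizygous, was at -0.26 with an SE of 0.097 and a 95% interval of -0.49 to -0.037, which leaves out 0. Its edgeR p was 0.0285 unadjusted and 0.573 adjusted.

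Leaving out 1 sample at a time gave 0 to 2, 0 to 1 and 0 to 3 calls over all genes, and 0 of the 7 genes passed. Several of their small log2 fold changes then changed sign. For hemizygous against wild type the ranges were -0.25 to 0.33 for LIN28B, -0.037 to 0.17 for TUT7, -0.12 to 0.053 for TRIM71 and -0.15 to 0.045 for ZSWIM8. For homozygous against wild type they were -0.42 to 0.045 for LIN28B and -0.12 to 0.048 for TUT7. For homozygous against hemizygous they were -0.12 to 0.18 for LIN28A, -0.55 to 0.040 for LIN28B, -0.014 to 0.10 for TUT4, -0.035 to 0.11 for DIS3L2 and -0.15 to 0.035 for TRIM71. Others kept their sign but moved by over 1.5 times. Against wild type, hemizygous cells gave 0.068 to 0.17 for TUT4 and -0.20 to -0.075 for DIS3L2. Homozygous cells gave 0.10 to 0.21 for TUT4, -0.17 to -0.025 for DIS3L2, -0.16 to -0.025 for TRIM71 and 0.093 to 0.34 for ZSWIM8. TUT7, homozygous against hemizygous, gave -0.22 to -0.0025. The log2 ratio of LIN28B to LIN28A, edited minus wild type, ranged from -0.75 to 0.11.

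Between replicate numbers 3322 genes were called, against 0 without the wild-type samples, 2 without the hemizygous samples and 6252 without the homozygous samples; fewer samples entered those fits. LIN28A was at -0.094 and ZSWIM8 at -0.021 without the wild-type samples, and TRIM71 at 0.0065 and ZSWIM8 at -0.069 without the hemizygous samples, signs opposite to those with all samples. DESeq2 and limma-voom for the replicate number were chosen after seeing the data.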

Other observations

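The 3′ UTRs of the 3 genes with let-7 matches also hold seed matches of other microRNAs, searched in the same way. For the miR-125-5p seed (CTCAGGG) LIN28A has 1, LIN28B has 1 and TRIM71 has 2, all followed by an A. UTRs of similar length hold at least 1 in 25.2%, 29.6% and 36.0% of measured genes. For the miR-30-5p seed (TGTTTAC) LIN28B has 3, all followed by an A, where 40.9% of genes of similar UTR length have at least 1. LIN28A has 2 (30.4% of genes of similar UTR length), and TRIM71 (47.2%), TUT4 (10.9%) and TUT7 (10.6%) have 1 each. For the miR-9-5p seed LIN28B (31.7%) and TRIM71 (41.1%) have 3 each and LIN28A (24.4%) has 1. For the miR-25/92-3p seed LIN28B (31.0%) has 2 and DIS3L2 (6.70%) has 1. For the miR-302-3p seed (AGCACTT), that of the most typical microRNAs of human embryonic stem cells, LIN28B has none. Of genes of similar UTR length to LIN28B, 53.1% have at least 1. LIN28A (43.5%), TUT4 (15.2%) and TRIM71 (61.0%) have 1 each, not followed by an A. These are counts of letters in the reference and were not tied to any expression difference.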
